A study of Mus musculus with 12 samples.

Results

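PIWI proteins and the piRNA factors that carry no tudor domain were followed across the testes of young mice that lacked Sohlh1 or Sohlh2. The genes were Piwil1, Piwil2, Piwil4, Mael, Mov10l1, Asz1, Pld6, Gtsf1, Fkbp6 and Henmt1, and every array probe set annotated to exactly 1 of them was taken on its own. That gave 12 probe sets for 9 of the 10 genes, out of 45037 probe sets and 18193 genes named on the array. Piwil4, Asz1 and Gtsf1 had 2 probe sets each and 6 genes had 1, while no probe set was named for Fkbp6, a co-chaperone of the PIWI pathway, which is not analysed here. All 12 were bright enough to be tested, among 28694 that were. The study hybridised RNA of whole testis at postnatal day 7 to 12 arrays, 4 for wild type, 4 for Sohlh1 knockout (Sohlh1-/-) and 4 for Sohlh2 knockout (Sohlh2-/-), all on a mixed background described as C57BL/6, 129S5, SvEvBrd hybrid. Each array carried a pool of 3 testes from 3 animals, so the error bars and p-values measure the spread between pools. No source used here says how the alleles were made. The question was which of these genes differ in signal when either factor is missing.

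piRNAs are short RNAs of germ cells that guide PIWI proteins to transposon transcripts and, in the fetal testis, to transposon DNA that is then methylated. Longer precursors are unwound and cut at the surface of mitochondria, loaded onto a PIWI protein, trimmed, and methylated at the 3' end. Sohlh1 and Sohlh2 are basic helix-loop-helix transcription factors of spermatogonia, the mitotic germ cells of the postnatal testis, and are needed for these cells to differentiate. Factors of that class bind E-boxes, the letters CANNTG.

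The sequences upstream of the 3 genes with a probe set changed in both knockouts (1 of 2 for Asz1) show which E-boxes lie there. They are RefSeq promoters of assembly GRCm38.p6, all on the minus strand, printed 5′ to 3′ for the 250 bases before the start, at chr15:103430428-103430677 for Gtsf1, chr6:18109062-18109311 for Asz1 and chr11:59787658-59787907 for Pld6. Capitals mark CANNTG.
Gtsf1: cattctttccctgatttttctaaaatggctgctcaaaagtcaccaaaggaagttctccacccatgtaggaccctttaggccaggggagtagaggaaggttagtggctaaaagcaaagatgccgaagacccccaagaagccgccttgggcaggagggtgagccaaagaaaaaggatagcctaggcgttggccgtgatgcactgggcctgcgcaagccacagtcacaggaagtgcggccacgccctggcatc
Asz1: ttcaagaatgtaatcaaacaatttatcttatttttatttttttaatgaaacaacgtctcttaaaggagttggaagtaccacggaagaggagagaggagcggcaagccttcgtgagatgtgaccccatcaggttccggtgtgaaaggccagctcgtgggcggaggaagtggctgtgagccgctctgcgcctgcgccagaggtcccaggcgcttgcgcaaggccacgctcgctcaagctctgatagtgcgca
Pld6: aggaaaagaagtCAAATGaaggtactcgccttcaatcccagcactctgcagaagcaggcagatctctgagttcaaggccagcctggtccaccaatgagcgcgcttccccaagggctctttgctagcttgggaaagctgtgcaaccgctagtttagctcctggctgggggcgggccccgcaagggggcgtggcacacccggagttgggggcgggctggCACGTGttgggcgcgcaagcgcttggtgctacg
The Gtsf1 and Asz1 stretches hold no CANNTG, nor do the 50 bases that follow the start in the same table. Pld6 has 2, CAAATG with its first letter 238 bases before the start and CACGTG at 33 bases before it. A second RefSeq start of Pld6, whose window spans chr11:59787173-59787472, has CAGCTG at 110 and at 92 bases before that start. The table held 12 windows of 300 bases for 9 of the 10 genes, with none for Piwil2, and 10 of the 12 held at least 1 CANNTG on either strand. Of all 32851 windows in the table, 72.3% did. The narrower form CACGTG was in 7.15% of all windows, CAGCTG in 16.3% and CACCTG in 20.2%. Among the members CACGTG was not particular to Pld6. It also lay in windows of Piwil1, Mael and Mov10l1, which are not among those 3 genes, and of Fkbp6, which had no probe set. A match is a description of letters and not of binding, and an absent match says nothing about the factor.

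Before the results, the label check and the quality of the arrays need stating. The Sohlh1 probe set gave signals of 1125 to 1233 in wild type and of 104, 61.0 and 50.2 on Sohlh1 knockout arrays 2, 3 and 4, but 595 on replicate 5 as labelled, where the Sohlh2 probe set was at 94.4. The Sohlh2 probe set gave 885 to 1200.3 in wild type and 157, 93.6 and 73.2 on Sohlh2 knockout arrays 3-1, 4 and 5. On replicate 1 as labelled it gave 1847, and the Sohlh1 probe set was at 126. Sohlh1 knockout 5 and Sohlh2 knockout 1 therefore went against their labels, and no source used here says whether the probes lie in the deleted parts. On Sohlh2 knockout arrays 3-1, 4 and 5 the Sohlh1 probe set read 465, 494 and 563. The Sohlh2 probe set read 1556, 1783 and 1605 on Sohlh1 knockout arrays 2, 3 and 4. On these probe sets each of the 2 arrays thus read like the other knockout group. An exchange of labels was not tested. Both arrays were kept in their labelled groups, and counts are also given without them. The 3'/5' ratio of the Gapdh control probe sets, a measure of RNA integrity, was 0.744 to 0.818 on 10 arrays, 1.17 on Sohlh1 knockout 2 and 1.63 on the array labelled Sohlh2 knockout 1.

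Against wild type, Gtsf1 and 1 of the Asz1 probe sets rose and Pld6 fell in both knockouts. No probe set of a PIWI protein itself reached an adjusted p under 0.05. Piwil4 1447564_x_at came near it in the Sohlh1 knockout, with a log2 fold change of 0.84 (limma adjusted p = 0.0644). In the Sohlh1 knockout 4 of 12 probe sets, belonging to 3 genes, passed an adjusted p under 0.05, 3 higher and 1 lower. Over all tested probe sets 2.09% passed, 0.707% higher and 1.38% lower. In the Sohlh2 knockout the count was again 4 of 12, 3 higher and 1 lower, beside 1.55% of all probe sets, 0.606% higher and 0.944% lower. The median log2 fold change of the 12 was -0.02 in the Sohlh1 and 0.16 in the Sohlh2 knockout, beside -0.00273 and -0.00377 for all tested probe sets. Both comparisons use the same wild-type arrays, so they are not independent of each other. Fewer germ cells of a type and less RNA per cell cannot be told apart in whole testis. Fold changes are on the scale log2(signal + 14.2), which draws those of dim probe sets towards 0.

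**Figure D1:**
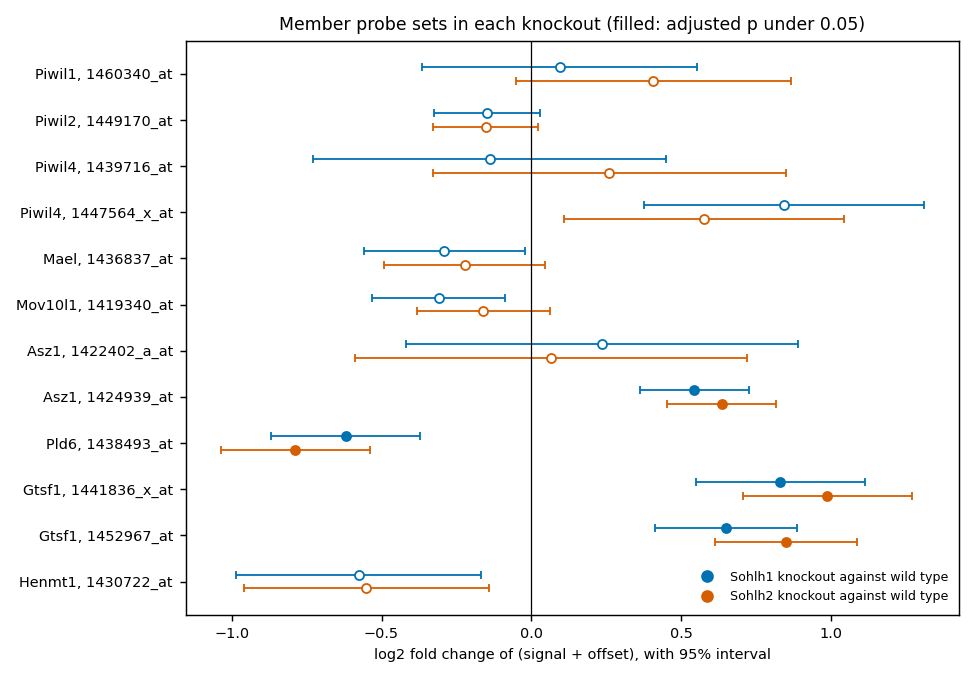
Log2 fold change of signal plus offset (x axis, bars are 95% confidence intervals from limma) for each of the 12 probe sets (y axis) in the Sohlh1 knockout (blue) and the Sohlh2 knockout (orange) against wild type. Filled points have an adjusted p under 0.05: both Gtsf1 probe sets and Asz1 1424939_at lie to the right of 0 and Pld6 to the left in both knockouts.

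The PIWI proteins come first. Piwil2, known as MILI, is the PIWI protein of fetal germ cells and of spermatogonia and binds piRNAs cut from transposon and other transcripts. Its signal was 1740.0, 1635, 1832 and 1798 in wild type, 1504, 1683, 1534 and 1591 in the Sohlh1 knockout and 1622, 1584, 1639 and 1450.4 in the Sohlh2 knockout. The knockout arrays lay mostly below wild type, but 1 array of each knockout group was above the lowest wild-type array, so the groups overlapped. The log2 fold changes were -0.15 (confidence interval -0.33 to 0.03, adjusted p = 0.424) and -0.15 (-0.33 to 0.02, adjusted p = 0.444), so the intervals leave room for a modest decrease and for no difference.

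Piwil1, known as MIWI, is the PIWI protein of meiotic and later germ cells, which are rare or missing at this age. Its signal was low on every array, from 79.2 to 127 in wild type, from 83.5 to 148 in the Sohlh1 knockout and from 109.5 to 186 in the Sohlh2 knockout, with the highest value on the array labelled Sohlh2 knockout 1. All 3 groups overlapped. The log2 fold change was 0.09 (confidence interval -0.37 to 0.55, adjusted p = 0.879) in the Sohlh1 knockout. It was 0.41 (-0.05 to 0.87, adjusted p = 0.435) in the Sohlh2 knockout.

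Piwil4, known as MIWI2, carries piRNAs into the nucleus of fetal germ cells, where it directs DNA methylation of transposons. Its 2 probe sets gave different pictures, which was known when they were kept apart. Probe set 1447564_x_at, whose suffix marks probes that may also match other transcripts, read 118, 137, 113 and 88.3 in wild type, 313, 212, 147 and 213 in the Sohlh1 knockout and 192, 170.5, 134 and 215 in the Sohlh2 knockout. Every Sohlh1 knockout array was above every wild-type array, whereas 1 Sohlh2 knockout array, at 134, was below the highest wild-type array. The mean was 194% of wild type in the Sohlh1 knockout, with a log2 fold change of 0.84 ± 0.22 (SE, n = 4 and 4), which missed the threshold (adjusted p = 0.0644). It passed when Sohlh1 knockout 4 was left out (1.01, adjusted p = 0.0405), when the array labelled Sohlh2 knockout 1 was left out (adjusted p = 0.0395), when only probe sets above the filter on all 12 arrays were tested (0.0479) and when 1 probe set per gene was tested (0.0322). It was 0.67 (adjusted p = 0.104) without the arrays of raised 3'/5' ratio, 1 of which gave the highest reading, 313. Without all 3 doubted arrays it was 0.58 (adjusted p = 0.274). In the Sohlh2 knockout the log2 fold change was 0.58 (confidence interval 0.11 to 1.04, adjusted p = 0.253).

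The other Piwil4 probe set, 1439716_at, was dim, above the filter value of 48.6 on 6 of the 12 arrays. It read 44.4, 37.9, 69.4 and 62.1 in wild type, 37.3, 69.3, 35.2 and 48.1 in the Sohlh1 knockout and 70.8, 74.4, 43.7 and 77.2 in the Sohlh2 knockout. The groups overlapped, and the log2 fold changes were -0.14 (adjusted p = 0.857) and 0.26 (adjusted p = 0.728). Array by array, the log2 change of 1439716_at minus that of 1447564_x_at was -0.98 in the Sohlh1 knockout and -0.32 in the Sohlh2 knockout. The tests run on these differences are not read here, since the disagreement was the reason for keeping the probe sets apart.

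The makers of piRNA come next. Pld6, also called MitoPLD, is the endonuclease on the mitochondrial surface that cuts piRNA precursors. Its signal was 869, 949, 1126 and 1059 in wild type, 530.2, 724, 689.8 and 648 in the Sohlh1 knockout and 562, 570.1, 574 and 578 in the Sohlh2 knockout. Every knockout array lay below every wild-type array, and the Sohlh2 knockout arrays were tightly grouped. The lowest array of each knockout group was the one with a raised Gapdh 3'/5' ratio. Means were 1001 ± 114 (SD, n = 4) in wild type, 648 ± 84.4 in the Sohlh1 knockout and 571 ± 7.01 in the Sohlh2 knockout, or 64.7% and 57.1% of wild type. Pld6 fell by 0.62 ± 0.12 (SE) on the log2 scale in the Sohlh1 knockout (adjusted p = 0.0133) and by 0.79 ± 0.12 in the Sohlh2 knockout (adjusted p = 0.00275). The first call was lost without wild type 5 (adjusted p = 0.0568), without wild type 6 (0.0542) and without all 3 arrays doubted above (-0.49, 0.0572). The Sohlh2 knockout call was kept in each of those. Without the arrays of raised ratio the changes were -0.53 (adjusted p = 0.0124) and -0.78 (adjusted p = 0.000988).

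Asz1, also called GASZ, is a protein with ankyrin repeats that anchors piRNA factors in the material between the mitochondria of germ cells. Probe set 1424939_at read 1327, 1258, 1268 and 1243 in wild type, 1932, 1868, 1705 and 1956 in the Sohlh1 knockout and 1894, 2201, 1989.9 and 1867 in the Sohlh2 knockout. Wild-type arrays were close together, at 1274 ± 37.0 (SD, n = 4), and all knockout arrays were above them. On this probe set Asz1 rose by 0.54 ± 0.09 (SE) on the log2 scale, to 146% of wild type, in the Sohlh1 knockout (adjusted p = 0.00356). It rose by 0.63 ± 0.09 (adjusted p = 0.00128), to 156%, in the Sohlh2 knockout.

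The second Asz1 probe set, 1422402_a_at, read 915, 1174, 1511 and 1444 in wild type, 1108, 1837, 1359.7 and 1639.6 in the Sohlh1 knockout and 555, 1742, 1679 and 1729.6 in the Sohlh2 knockout. The groups overlapped, with the lowest array of each knockout group being the one with a raised Gapdh 3'/5' ratio. The log2 fold changes were 0.24 (adjusted p = 0.762) and 0.07 (adjusted p = 0.952), and 0.37 (adjusted p = 0.209) and 0.47 (adjusted p = 0.123) without those arrays. The part of RNA quality in this difference was not tested beyond these values. Taken array by array, its change minus that of 1424939_at was -0.31 in the Sohlh1 knockout (exact permutation p = 0.286) and -0.57 in the Sohlh2 knockout (exact permutation p = 0.2), each with adjusted p = 0.446 over 6 such comparisons. The 6 include those of Piwil4. The smallest p that 4 against 4 arrays allow is 0.0286.

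Mov10l1 is the RNA helicase that hands piRNA precursors to processing. It read 1647, 1669, 1998 and 2047 in wild type, 1338, 1482, 1421 and 1682 in the Sohlh1 knockout and 1771, 1591, 1663 and 1528 in the Sohlh2 knockout. Of the Sohlh1 knockout arrays, that labelled 5 lay among the wild-type arrays and the others below them. The log2 fold change was -0.31 (confidence interval -0.53 to -0.09), which missed the threshold over all probe sets (adjusted p = 0.165). For the Sohlh2 arrays it was -0.16 (-0.38 to 0.06, adjusted p = 0.539).

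Henmt1 is the methyltransferase that modifies the 3' end of a finished piRNA and so protects it. It read 298, 299, 288 and 279.7 in wild type, 183, 157, 179 and 256 in the Sohlh1 knockout and 128, 229, 239 and 199.9 in the Sohlh2 knockout. Every knockout array was below every wild-type array, with means at 66.5% and 68.4% of wild type, yet the knockout groups were spread widely. The log2 fold changes of -0.58 ± 0.19 (SE, adjusted p = 0.160) and -0.55 ± 0.19 (adjusted p = 0.203) missed the threshold. In the Sohlh1 knockout Henmt1 passed it without the 2 arrays that went against their labels (-0.71, adjusted p = 0.0172), without all 3 doubted arrays (-0.75, 0.0307), when the array labelled Sohlh2 knockout 1 was dropped (0.0427) and with arrays weighted by their quality (0.0435). In the Sohlh2 knockout it did not pass in any alternative run, with adjusted p from 0.122 to 0.508, and was -0.37 without the array labelled Sohlh2 knockout 1.

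Gtsf1 and Mael act with the loaded PIWI proteins. Gtsf1 is a small zinc finger protein that binds PIWI proteins and is needed for them to silence transposons. Probe set 1452967_at read 1422, 1541, 1840.5 and 1667 in wild type, 2229, 2645, 2459 and 2834 in the Sohlh1 knockout and 2598, 3209, 3206 and 2680.4 in the Sohlh2 knockout. Probe set 1441836_x_at read 2796, 2948, 2951 and 2427 in wild type, 5777, 4337, 4119 and 5755 in the Sohlh1 knockout and 6773, 5308, 5222 and 4891 in the Sohlh2 knockout. On both probe sets every knockout array was above every wild-type array. The arrays of raised 3'/5' ratio were the lowest of their groups on 1452967_at and the highest on 1441836_x_at.

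On 1452967_at Gtsf1 rose to 157% of wild type in the Sohlh1 knockout, by 0.65 ± 0.11 (SE) on the log2 scale (adjusted p = 0.00674), and to 181% in the Sohlh2 knockout, by 0.85 ± 0.11 (adjusted p = 0.00102). On 1441836_x_at it rose to 180% of wild type, 0.83 ± 0.13 (adjusted p = 0.00394), and to 199.6%, 0.99 ± 0.13 (adjusted p = 0.00121). Among the members, Gtsf1 had the smallest adjusted p in the Sohlh2 knockout, and it kept its call in every alternative in which its probe sets were tested, the fits without the doubted arrays included. The log2 change from wild type of 1441836_x_at minus that of 1452967_at was 0.18 in the Sohlh1 knockout (exact permutation p = 0.371, adjusted p = 0.446) and 0.14 in the Sohlh2 knockout (exact permutation p = 0.571, adjusted p = 0.571), neither separated from 0.

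Mael, or Maelstrom, is a protein with an HMG box found in the germ cell granules where piRNA factors gather. It read 6475, 6137, 6459.7 and 6274 in wild type, 4124, 5343, 5196 and 6273 in the Sohlh1 knockout and 4387, 5309.9, 6082 and 6132 in the Sohlh2 knockout. Wild-type arrays stood close together, at 6336 ± 161 (SD, n = 4), and the lowest array of each knockout group was again the one with a raised 3'/5' ratio. All Sohlh2 knockout arrays were below the lowest wild-type array, the highest of them at 6132 against 6137, while Sohlh1 knockout 5, as labelled, was not. The log2 fold changes were -0.29 (confidence interval -0.56 to -0.02, adjusted p = 0.292) and -0.22 (-0.49 to 0.05, adjusted p = 0.472). Without the arrays of raised ratio they were -0.18 (adjusted p = 0.263) and -0.12 (adjusted p = 0.551).

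**Figure D2:**
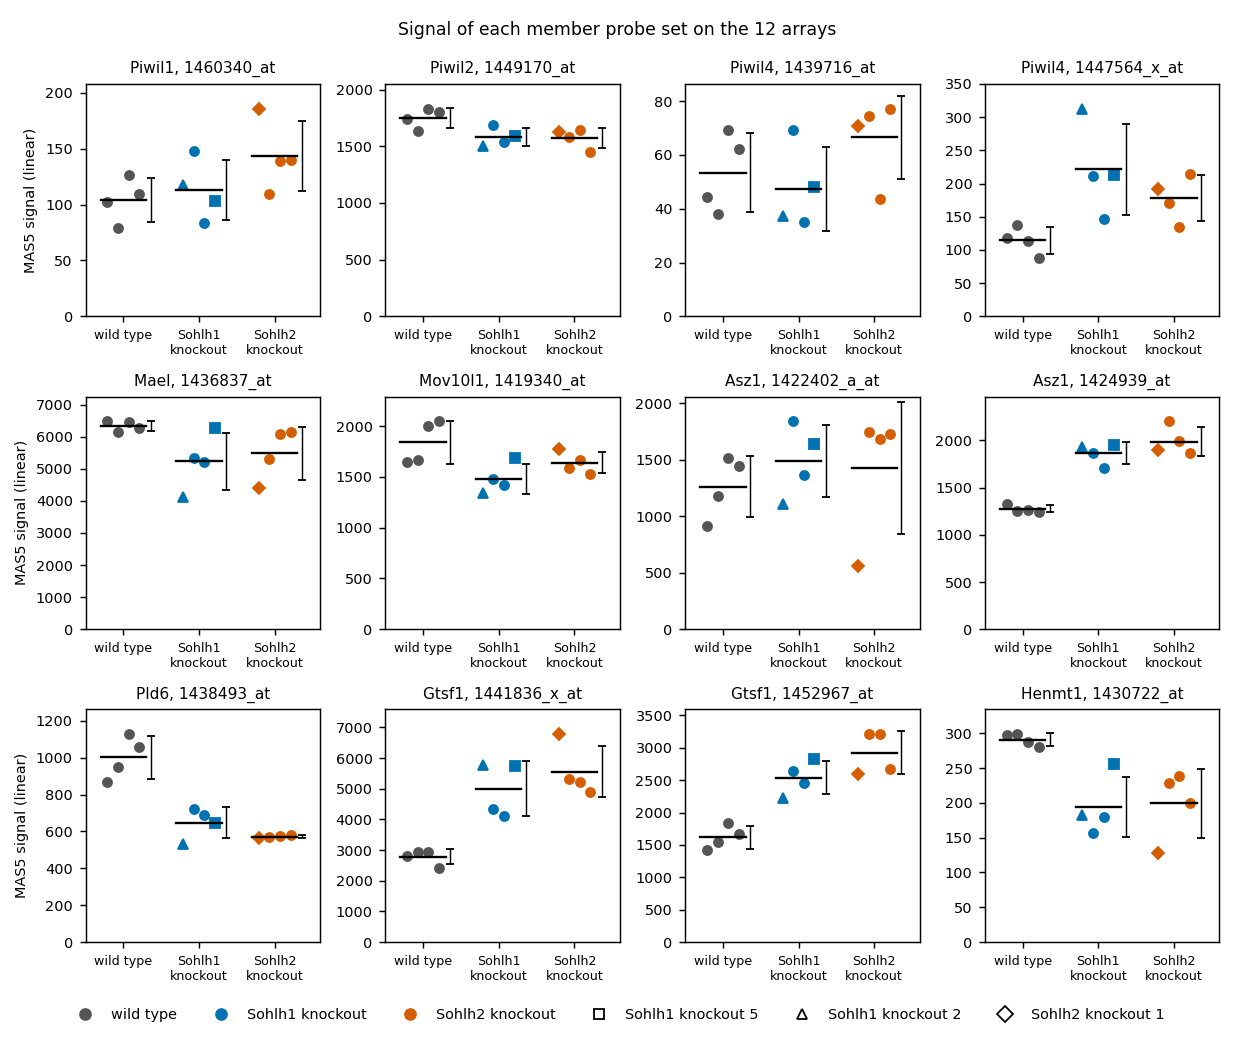
Linear MAS5 signal (y axis, from 0) of each probe set on the 12 arrays, by group, with the group mean as a line and 1 SD either side as a bar. For Gtsf1, Asz1 1424939_at, Pld6 and Henmt1 no knockout array falls in the wild-type range; the square, triangle and diamond mark the arrays doubted above.

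**Figure D3:**
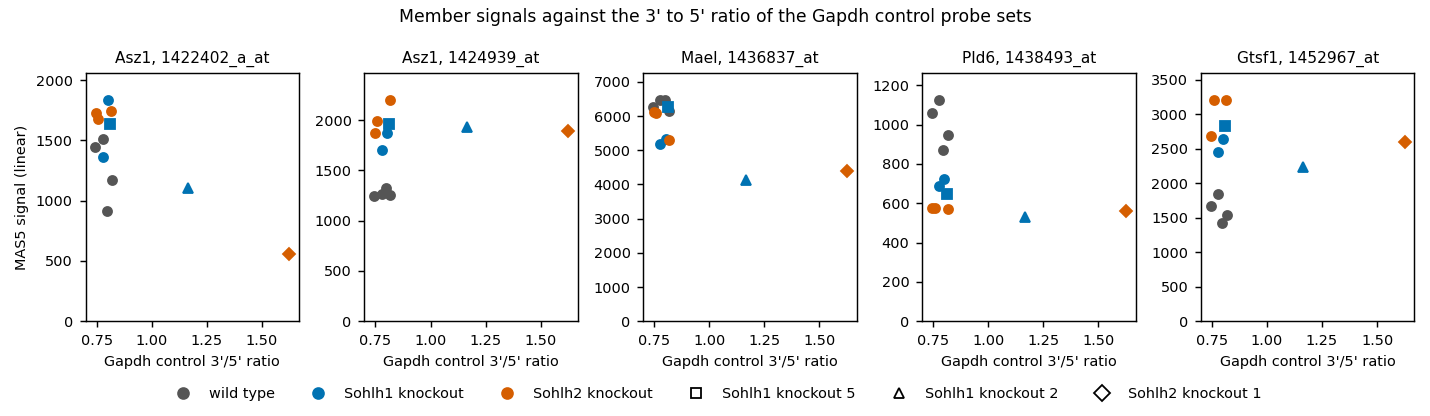
Linear MAS5 signal of 5 probe sets (y axis, from 0) against the Gapdh 3'/5' ratio of the array (x axis), 1 point per array, coloured by group. On the arrays at 1.17 and 1.63, Asz1 1422402_a_at, Mael, Pld6 and Gtsf1 1452967_at are the lowest of their groups, and Asz1 1424939_at, Pld6 and Gtsf1 1452967_at lie on the knockout side of all wild-type arrays.

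Counting groups that did not overlap, 6 of 12 probe sets stood apart from wild type in the Sohlh1 knockout, 4 higher and 2 lower. Of all tested probe sets 11.2% stood apart there, 5.07% higher and 6.08% lower. Again 6 of 12 stood apart in the Sohlh2 knockout, 3 higher and 3 lower, beside 8.82% of all, 4.14% higher and 4.69% lower. The probe sets were not all shared, since Piwil4 1447564_x_at stood apart in the Sohlh1 and Mael in the Sohlh2 knockout alone, and neither of those passed the test. Without the 2 arrays that went against their labels, 5 of 12 were called in the Sohlh1 and 4 in the Sohlh2 knockout, beside 860 and 458 of all 28694. Without the arrays of raised ratio the counts were 4 and 4, beside 991 and 747 of all. Without all 3 doubted arrays they were 4 and 4, beside 488 and 767.

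Between the knockouts themselves, 0 of 12 probe sets differed by limma, and 0% of all tested probe sets did, although 767 of the latter had an unadjusted p under 0.05. Among the 12, 0 had an unadjusted p under 0.05, the smallest being 0.0924 for Gtsf1 1452967_at, and no groups stood apart, beside 1.90% of all. The differences, Sohlh2 minus Sohlh1 knockout, ran from -0.27 to 0.40. For Gtsf1 1452967_at the interval was -0.04 to 0.44, for Asz1 1424939_at -0.09 to 0.27, for Pld6 -0.42 to 0.08 and for Henmt1 -0.38 to 0.43. Each probe set may differ by any amount within its own interval, and these fits include the arrays that went against their labels. Without those arrays the count among the 12 was also 0.

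Of 30 further genes of the piRNA pathway, 27 had a named probe set, all were tested, and none was named for Tdrd6, Spocd1 and Nanos2. In the Sohlh1 knockout 3 rose and 1 fell, or 14.8% of the 27, beside 2.09% of all tested probe sets. Their median log2 fold change was -0.01, beside -0.00273 for all. In the Sohlh2 knockout 3 rose and 0 fell, or 11.1%, beside 1.55% of all. The median of the 27 was 0.0063 there, beside -0.00377 for all. Leaving out the array labelled Sohlh2 knockout 1 moved the median of the 27 to 0.08. The list takes 1 probe set per gene, that with the highest mean, and was chosen with earlier results known. Its shares and those of all probe sets are therefore not like for like.

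The genes that rose were the same in both knockouts. Morc1, an ATPase needed to silence transposons in fetal germ cells, read 1345 to 1474 in wild type, 2377 to 2903 in the Sohlh1 knockout and 2634 to 2875 in the Sohlh2 knockout. It rose by 0.88 (adjusted p = 8.85e-05) and 0.95 (adjusted p = 4.83e-05) on the log2 scale. Gpat2, a mitochondrial acyltransferase that takes part in making piRNA, read 879 to 1166 in wild type against 1688 to 2051 and 1831 to 2645, and rose by 0.87 (adjusted p = 0.00188) and 1.04 (adjusted p = 0.000642). Stk31, a germ cell protein with both a tudor and a kinase domain, rose by 0.50 (adjusted p = 0.0110) and 0.55 (adjusted p = 0.00681). Uhrf1, which reads hemimethylated DNA and recruits the maintenance methyltransferase, fell by 0.53 in the Sohlh1 knockout (adjusted p = 0.0124). It was -0.31 in the Sohlh2 knockout (adjusted p = 0.155), and was not called between the knockouts. Ddx4, the germ cell helicase of the same granules, read 3752 to 4408 in wild type, 4222 to 4970.1 in the Sohlh1 knockout and 4103 to 4722 in the Sohlh2 knockout, with overlapping groups.

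**Figure D4:**
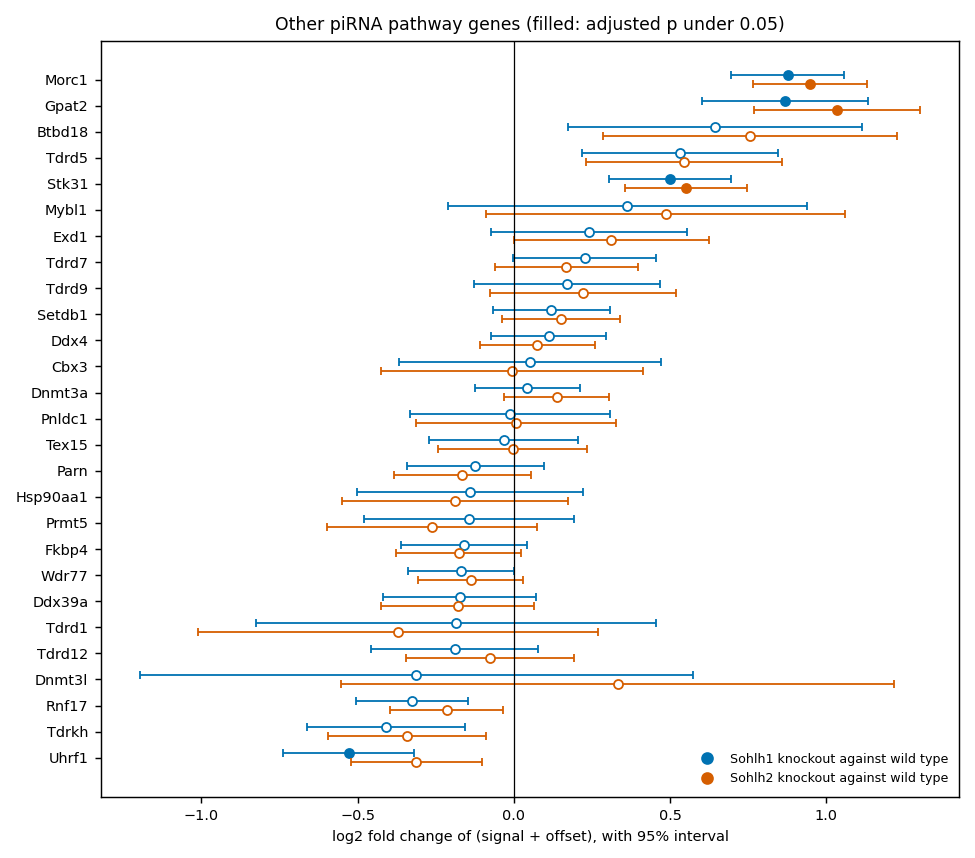
Log2 fold change of signal plus offset (x axis, bars are 95% confidence intervals from limma) for 27 other genes of the piRNA pathway (y axis) in the Sohlh1 knockout (blue) and the Sohlh2 knockout (orange) against wild type. Filled points have an adjusted p under 0.05: Morc1, Gpat2 and Stk31 lie to the right in both knockouts and Uhrf1 to the left in the Sohlh1 knockout.

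Markers of the cells that could carry these signals moved with the knockouts as follows. The summed signal of 7 markers of germ cells at any stage was 26777 to 30173 in wild type, 24931 to 28793 in the Sohlh1 knockout and 26931 to 29700 in the Sohlh2 knockout, and 0 of the 7 changed in either. Among 8 markers of differentiating spermatogonia, 5 fell in the Sohlh1 knockout (Crabp1, Kit, Dmrtb1, Esx1 and Sohlh1 itself) and the first 4 of these in the Sohlh2 knockout. Their sum was 18609 to 21504 in wild type, 11829 to 13154 in the Sohlh1 knockout and 11631 to 15650 in the Sohlh2 knockout. The list holds Sohlh1 and Sohlh2, the genes knocked out. Of 9 markers of undifferentiated spermatogonia, Gfra1 and Id4 rose and Sox3 and Neurog3 fell in both knockouts, with sums of 7362 to 7805, 6226 to 8788 and 6429 to 8986 in the same order of groups.

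Spermatocyte markers, 9 in all, summed to 6967 to 10889.5, 6921 to 7658 and 6537 to 9170, with Hormad1 higher in both knockouts and Sycp2 in the Sohlh2 knockout. Of 6 round spermatid genes 4 were bright enough to test, and Spaca1 rose in both knockouts, while Acrv1 and Prm1 were too dim. Their sum was 249 to 331 in wild type, 379 to 469 in the Sohlh1 knockout and 366 to 499 in the Sohlh2 knockout, most of the rise being that of Spaca1. Without Spaca1 the sums of the other 5 overlapped, at 117 to 190.5, 152 to 207 and 127 to 217. None of 10 Sertoli, 4 Leydig, 5 peritubular, 6 endothelial or 6 macrophage markers changed in either knockout. Sertoli cell sums were 59093 to 67369, 66989 to 72712 and 62782 to 69885. The part of these cell types in the changes of Gtsf1, Asz1 and Pld6 was not tested.

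**Figure D5:**
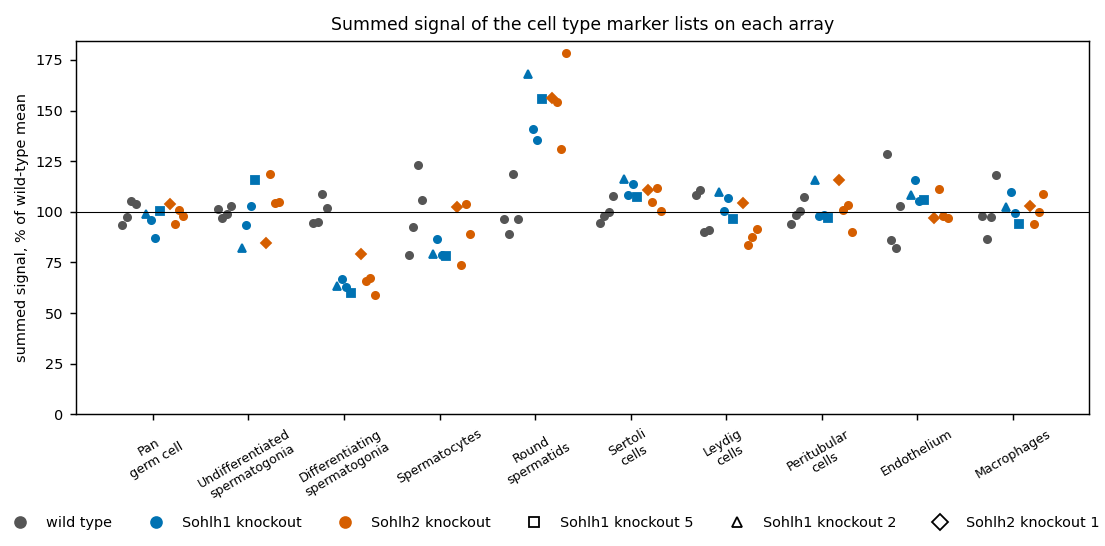
Summed signal of each marker list as a percentage of its wild-type mean (y axis, from 0) on each array, by list (x axis) and coloured by group. The differentiating spermatogonia list is below and the round spermatid list, through Spaca1, above all wild-type arrays in both knockouts, while the pan germ cell list overlaps between the groups.

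Other genes followed the 2 members with the smallest p in each direction in the Sohlh1 knockout closely across the 12 arrays. Likeness was the root mean square difference of log2 values after each probe set's wild-type mean was taken off, searched over 24894 probe sets. Nearest to Asz1 1424939_at were Parl (0.0901), Nkap (0.0943), Arntl (0.0976) and Zbtb43 (0.109). Nearest to Pld6 were Mad2l2 (0.115), E130309D02Rik (0.130), Mt2 (0.134) and 4933427D06Rik (0.135). These are descriptions of likeness on 12 arrays in 3 groups and carry no test.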

How the data were processed

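The deposited table gives 1 signal intensity per probe set and array, linear in scale. Per the submitters' processing notes MAS5 and GCOS were used. Versions: not given in the sources used here. No detection calls came with the table. The precision is limited by the number of arrays.

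Each intensity had 14.2 added (the 20th percentile of non-control values) before log2 was taken, and arrays were not normalized further. Control probe sets (64) were dropped. To be tested, a probe set had to exceed 48.6, the 40th percentile, on 4 or more of the 12 arrays. Names came from the platform annotation, which gave 1 symbol to 34945 probe sets, several to 932 and none to 9160. limma 3.58.1 (R 4.3.3; lmFit, eBayes with trend) fitted genotype to the 12 arrays together, with two-sided p-values corrected by the Benjamini-Hochberg method over the 28694 tested probe sets. Rose, fell and changed stand for an adjusted p under 0.05. Probe sets of 1 gene were compared by exact permutation tests (scipy 1.17.1). Marker and pathway genes were each represented by the probe set with the highest mean. The code was tested on simulated arrays with known changes. It called 34% of 1.5-fold, 54% of 2-fold, 74% of 3-fold and 90% of 4-fold changes, with 4 false calls. Each share rests on 50 probe sets changed in the Sohlh1 group alone. The simulated noise was independent between probe sets and arrays. The doubted arrays had no counterpart in it, so its false calls do not give the number in the real data.

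All member probe sets are named. Of the other pathway genes those named had the smallest p among the called in each direction, up to 4, and Ddx4 is the first germ cell marker. Of the marker lists every called gene is named. The members and lists were chosen with earlier results of these data known. The alternatives were other filters, offsets, normalizations, probe set choices, variance models, thresholds, the replicate number as a block, only the groups compared, and each array left out. The fits without doubted arrays were chosen after seeing the data. Figures were drawn with matplotlib 3.10.9.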

Additional observations from a re-analysis of the deposited data

Results flagged for a closer look

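Asz1 1422402_a_at read 555 on the array labelled Sohlh2 knockout 1, far below the other 3 arrays of that group. The gap to the nearest of them was 0.947 of the group's range. It was the only value to stand so far out among 36 groups of 4 arrays. Chance alone would mark about 1 group in 20, so a count of 1 is not above chance. That array also had the highest Gapdh 3'/5' ratio, at 1.63, and went against its label. On it the other Asz1 probe set, 1424939_at, read 1894, within the 1867 to 2201 of its group. The part of RNA quality in the low value was not tested.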

How the results depend on the processing

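The count of all probe sets called moved most. For the Sohlh1 knockout it was 600, and 343 without the variance trend, 1227 with array weights, 183 at adjusted p under 0.01, 230 to 1238 with 1 array left out, and 991 without the arrays of raised 3'/5' ratio. For the Sohlh2 knockout it was 445, and 293, 1075 and 144 in the same order, 283 with only the groups compared, 202 to 503 with 1 array left out, 747 without the arrays of raised ratio and 767 without all 3 doubted arrays. Among the fits with 1 array left out, the Sohlh1 count was highest without the array labelled Sohlh2 knockout 1 and lowest without wild type 6. Between the knockouts it was 0, and 9 without the arrays that went against their labels and 11 without all 3. The member probe sets called were 3 to 5 and, with 1 array left out, 3 to 6 in the Sohlh1 knockout. In the Sohlh2 knockout they were 3 or 4, the 3 where each gene had 1 probe set or _x_at probe sets were dropped, but for the block below. Pathway genes called were 2 in place of 4 in the Sohlh1 knockout at adjusted p under 0.01.

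Arrays of the same replicate number in different groups were not more alike: 1 of 9 such pairs correlated over 0.1, with r from -0.117 to 0.101. Of 39 differently numbered pairs 9 did, with r from -0.260 to 0.379. These correlations cannot show that arrays of 1 number were handled apart. With a replicate block counting array 3-1 on its own, all probe sets called were 338 and 98, members called in the Sohlh2 knockout 2, and Asz1 1424939_at (adjusted p = 0.0580) and Pld6 (0.0664) missed the threshold there. With either block Pld6 missed it in the Sohlh1 knockout (-0.50, adjusted p = 0.0603 or 0.0928) and Piwil4 1439716_at turned to 0.0043. With 1 array left out, Piwil1 in the Sohlh1 knockout ran from -0.031 to 0.21, Asz1 1422402_a_at in the Sohlh2 knockout from -0.077 to 0.47, and the difference between the changes of the Gtsf1 probe sets in the Sohlh2 knockout from -0.015 to 0.21. The cause of these moves was not tested. With 4 arrays a group, a missed threshold does not show that values did not differ.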
